A study of Zea mays subsp. mays with 2 samples.

Results

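Divergent head-to-head pairs are neighbouring transcribed loci on opposite strands whose 5' sides face each other. In separated pairs transcription runs outward from the gap. In overlapping pairs each 5' end lies inside the partner, and both loci are transcribed through the shared stretch. The pairs were selected from position alone in a table of transcribed loci from the shoots and the roots of 14-day-old plants. The plants were of B73, the maize inbred line behind the reference genome. A minus-strand locus on the left was paired with a plus-strand locus on the right when they overlapped, or when at most 1000 bp separated them and no other locus began or ended in the gap. Pairs with one locus wholly inside the other were left out. This gave 828 pairs made up of 1641 loci, 4.39% of the 37398 listed loci, with 819 on the minus and 822 on the plus strand. Of these loci, 15 belonged to 2 pairs and the other 1626 to 1 pair. No level was used in the selection.

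The data are strand-specific, single-end sequencing of polyadenylated RNA, with 1 library from shoots and 1 from roots. Both groups are untreated plants of the same line and age, and the number of plants behind each library is not given in the sources used here. The level of a locus is its FPKM, the fragments assigned to it divided by transcript length and scaled to the library's mapped total, so levels of different loci are compared per length. The sequencing depth is unknown. With 1 library per tissue there is no replicate check and no test, and every difference below is one between these libraries. Loci carry no gene names, and 0 of the 1641 member identifiers matched the 49888 genes of the maize RefSeq table, so the tissue labels could not be checked against marker genes, and whether a member is a coding gene or a noncoding RNA is not stated. Positions are on B73 RefGen_v2.

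Head-to-head arrangement is of interest because one nucleosome-depleted promoter region can start transcription in both directions. Some such regions serve a pair of coding genes, which may then be expressed together. Others drive one coding gene and a short RNA in the opposite direction. In yeast and mammals many of these upstream antisense RNAs are unstable and are removed by the RNA exosome, so they are often faint or missing in polyadenylated RNA.

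The pairs were nearly evenly divided between overlapping and separated ones. In 410 pairs (49.5%) the loci overlapped from their 5' ends, with a median overlap of 161 bp. The rule sets no upper limit on overlap, and the largest was 126676 bp. The other 418 pairs were separated by 5 to 997 bp, with a median gap of 347 bp. At the upper edge of the rule, 24 pairs had gaps of 951 to 1000 bp, and 16 further pairs lay just outside it at 1001 to 1050 bp. Convergent pairs, with a plus-strand locus on the left and their 3' ends adjacent, numbered 1754 under the same distance rule, of which 693 overlapped.

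Overlaps slightly shorter than a sequencing read were the most frequent. The libraries were read for 100 cycles. Overlaps of 71 to 100 bp occurred in 130 divergent pairs, 31.7% of all overlapping ones, against 13 pairs at 101 to 130 bp. Within this window 31 pairs overlapped by exactly 99 or 100 bp. The same edge was present among convergent pairs, with 101 overlaps (14.6%) of 71 to 100 bp and 22 of 101 to 130 bp. Because the edge falls at the number of cycles in both orientations, overlaps of 1 to 100 bp are described as a class of their own. The part of read length in these overlaps was not tested.

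**Figure D1:**
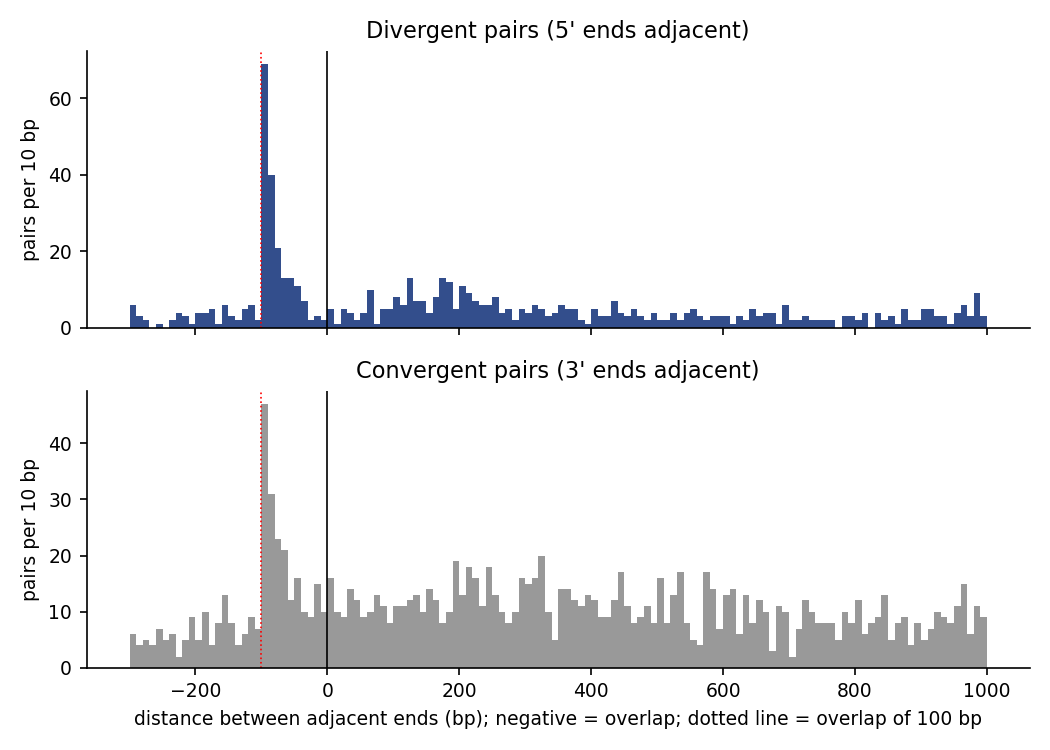
Number of divergent (top) and convergent (bottom) pairs per 10 bp of distance between the adjacent ends, where negative distances in bp are overlaps and the dotted line marks an overlap of 100 bp. Both panels show a peak that ends at 100 bp of overlap, with 130 divergent and 101 convergent pairs between 71 and 100 bp; overlaps over 300 bp are outside the plotted range.

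The short-overlap pairs usually joined a long locus with a short one. In 113 of the 181 pairs that overlapped by 1 to 100 bp (62.4%), the shorter locus spanned 500 bp or less, against 33 of 229 pairs (14.4%) with longer overlaps and 71 of 418 separated pairs (17.0%). Span is the genomic distance from start to end, introns included. Among convergent pairs that overlapped by 1 to 100 bp, the share with such a short locus was 9.28% (18 of 194). A short companion was thus part of most short overlaps at 5' ends and of few at 3' ends, a difference that was not tested.

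Short companions were faint. In 109 of the short-overlap pairs one locus spanned 500 bp or less and the other more. The short loci had a median of 1.02 FPKM in shoots and 1.28 in roots, and their long partners had 10.5 and 12.6 FPKM. The short locus was the lower of the pair in 104 of 109 cases, at a median of 9.59% of its long partner, and 7 of the 109 reached 5 FPKM in a tissue. In the 55 separated pairs of this kind the short locus was the lower in 40 and stood at a median of 42.0% of the long one. Across the 109 pairs, Spearman's rho between the levels of the short and the long locus was 0.11 in shoots and 0.04 in roots, with many of the short loci near the listing threshold. Between their log2 ratios of roots over shoots rho was 0.44.

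Among these short companions, detection in roots alone was the most frequent class. Of the 109, 52 (47.7%) reached 1 FPKM in roots and not in shoots. A further 24 (22.0%) reached it in shoots alone, and 33 in both organs. Of their long partners, 98 were detected in both tissues. In the 55 separated pairs of a short and a long locus, 12 short loci were detected in roots alone and 12 in shoots alone (21.8% each), with a median log2 ratio of -0.07. In the 26 pairs of this kind with longer overlaps, 13 were detected in roots alone and 6 in shoots alone. Over all 243 members of 500 bp or less, those with a short partner included, 34.6% were detected in roots only, against 15.0% of all 6269 listed loci of that span. The table lists a locus only if it exceeds 1 FPKM in a library, and many of these loci lie close to that threshold. The log2 ratio of roots over shoots, computed with 1 FPKM added to both levels, had a median of 0.46 for the short loci and 0.25 for their long partners.

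Partners were usually unequal. The level of the lower partner, summed over both tissues, was a median of 24.2% of the higher one, and it was under 10% in 252 pairs (30.4%) and at least 50% in 210 (25.4%). The median was 10.5% for overlaps of 1 to 100 bp, 23.1% for longer overlaps and 35.7% for gaps up to 250 bp. At gaps of 251 to 500 bp and of 501 to 1000 bp it was 27.7% and 25.0%. For convergent pairs it was 26.7%. The minus-strand locus was the higher in 396 pairs and the plus-strand locus in 432, so neither strand dominated.

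**Figure D2:**
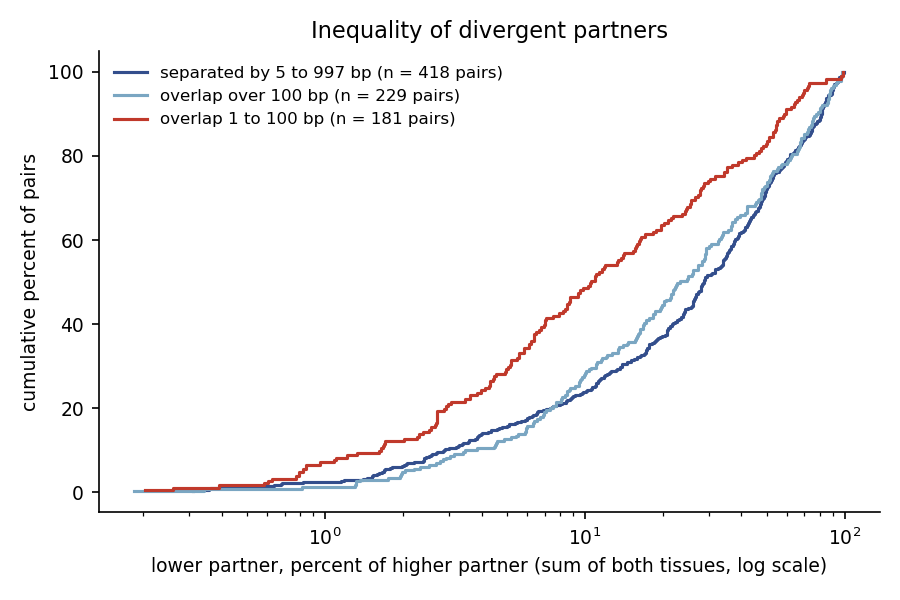
Cumulative percent of divergent pairs (vertical axis) against the level of the lower partner as a percent of the higher, from the FPKM sum of both tissues (log scale), for separated pairs, pairs with an overlap over 100 bp and pairs with an overlap of 1 to 100 bp. The curve for overlaps of 1 to 100 bp lies to the left, with a median of 10.5% against 23.1% for longer overlaps and 28.7% for separated pairs.

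The most unequal pairs, among those with a partner at 100 FPKM or more, put a strongly expressed locus beside one near the listing threshold. On chromosome 7 the minus-strand locus spanning 108302403 to 108303955 stood at 53.5 FPKM in shoots and 965 in roots. The plus-strand locus spanning 108303128 to 108304298, with 828 bp in common, had 0.065 and 1.81 FPKM. Summed over the organs, the fainter one was at 0.18% of the other. On chromosome 2 the minus-strand locus spanning 231986102 to 231987473 had 1059 FPKM in shoots and 1005 in roots, and its 227 bp companion, overlapping by 90 bp, had 1.96 and 2.24 FPKM. Neither partner of that pair differed between the tissues by more than 0.13 on the log2 scale. The third such pair lies on chromosome 7, where the plus-strand locus spanning 1137268 to 1138555 had 20.6 FPKM in shoots and 403 in roots and its short companion, overlapping by 77 bp, had 0.088 and 1.02 FPKM. Leakage of reads between strands was not measured, and its part in such faint companions was not tested.

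The most abundant members were paired with loci of moderate level. There were 11 members at 500 FPKM or more in shoots, and their partners had 1.96 to 148 FPKM there, with a median of 20.8 FPKM. Of the 10 members at this level in roots, the partners had 1.81 to 90.0 FPKM, with a median of 10.7 FPKM. A single partner among them reached 100 FPKM, in shoots. Because these members were taken for their high level, a lower partner follows from the choice, and the medians of the partners were above those of all members, 7.94 FPKM in shoots and 6.71 in roots. Across all 828 pairs, rho between the levels of the minus and plus locus was 0.09 in shoots and 0.07 in roots. It was 0.16 and 0.19 for separated pairs, and -0.04 and -0.09 for overlapping ones.

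A few pairs were highly expressed on both sides. In 9 pairs (1.09%) all 4 values were at 50 FPKM or more, against 1.20% of convergent and 0.674% of same-strand pairs. The highest of these, on chromosome 8, joins a minus-strand locus spanning 84356145 to 84609178, with 374 FPKM in shoots and 364 in roots, to a plus-strand locus spanning 84607094 to 84610318, with 439 and 462 FPKM. Its 4 values lie close together. The loci of this pair overlap by 2085 bp, and they span 253034 and 3225 bp. On chromosome 4 the minus-strand locus spanning 136058258 to 136066294 had 184 and 310 FPKM, and the plus-strand locus 496 bp away, spanning 136066791 to 136069510, had 153 and 218 FPKM. On chromosome 10 the minus-strand locus spanning 19069355 to 19071252 had 178 FPKM in shoots and 335 in roots, and the plus-strand locus spanning 19072241 to 19073919 had 114 and 217 FPKM. In this last pair, with a gap of 988 bp, the log2 ratios of the partners were 0.91 and 0.92, both in favour of roots. The next pair, on chromosome 8 spanning 171328319 to 171335508 with a gap of 101 bp, had 121 and 138 FPKM on the minus strand and 77.2 and 168 FPKM on the plus strand. The fifth was a pair of loci of 177 and 150 bp on chromosome 8, spanning 169418726 to 169418994, overlapping by 58 bp, at 64.7 and 107 FPKM in shoots and 83.1 and 131 FPKM in roots.

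Large organ differences of the member loci were more often in favour of shoots, as they were among all listed loci. The typical locus did not lean that way. Log2 ratios had a median of 0.08 across members and of 0.06 across all loci, slightly in favour of roots. A call required a log2 ratio, with 1 FPKM added, of at least 2 in size (4-fold) and at least 1 FPKM in the higher organ. In shoots 109 members (6.64%) were called higher, against 7.55% of all loci. In roots the number was 31 (1.89%), against 3.95% of all loci. In either direction 8.53% of members were called, against 11.5% of all loci, and 24.6% of members differed at least 2-fold, against 30.0% of all loci. Low root shares were not particular to divergent pairs. Of the loci in convergent and same-strand pairs, 3.004% and 2.52% were called higher in roots, and 7.81% and 7.28% in shoots. In either direction 10.8% and 9.80% of them were called, and 26.3% and 30.8% differed at least 2-fold. At 1 FPKM or more, 78.9% of members were detected in both organs, against 81.0% of all loci. Detection in shoots alone applied to 11.6% of members, against 11.6% of all loci, and detection in roots alone to 9.51%, against 7.44%. The root share of members was under that of all loci on 9 of 10 chromosomes and the shoot share on 6 of 10. Those 9 chromosomes held 1 to 4 members called higher in roots each, and chromosome 4 held 8. The root shares by chromosome thus rest on few loci, and chromosomes are not replicates. Over 1000 bp of span, the shoot and root shares were 7.86% and 1.88% of members, and 7.77% and 3.72% of all loci. With no test available these shares are set side by side only, and members also differ from other loci in level, with a median of 7.94 FPKM in shoots and 6.71 in roots against 8.96 and 8.28 FPKM.

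In most divergent pairs with a called locus, 1 locus of the pair was called. Neither locus was called in 701 pairs (84.7%), exactly 1 in 114 (13.8%), and both in 13. Exactly 1 locus was called in 19.8% of convergent and 12.2% of same-strand pairs, and neither in 79.3% and 84.5%. Of the 114, the called locus was higher in shoots in 88 and in roots in 26. Both loci were higher in shoots in 10 pairs (1.21%) and higher in roots in 2 (0.24%), and in 1 pair (0.12%) they had opposite bias. For comparison, both loci were higher in shoots in 0.456% and higher in roots in 0.114% of convergent pairs, with opposite bias in 0.342%. Among same-strand neighbours under the same distance rule these shares were 2.52%, 0.724% and 0.0999%. The partners of the 109 members called higher in shoots had a median log2 ratio of -0.22, and 32 of them were at least 2-fold higher in shoots too, while 5 were at least 2-fold higher in roots. The share of all listed loci past 2-fold was 17.1% in favour of shoots and 12.9% in favour of roots. Among convergent pairs, 39 of 274 partners of loci called higher in shoots passed 2-fold in favour of shoots, with a median log2 ratio of 0.19. In divergent pairs with both loci over 1000 bp, 12 of 77 such partners did so, with a median log2 ratio of -0.03. Where the shorter locus spanned 500 bp or less it was 15 of 22, and at 501 to 1000 bp 5 of 10. The partners of the 31 members called higher in roots had a median log2 ratio of 0.89, with 11 at least 2-fold higher in roots and 4 at least 2-fold higher in shoots.

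**Figure D3:**
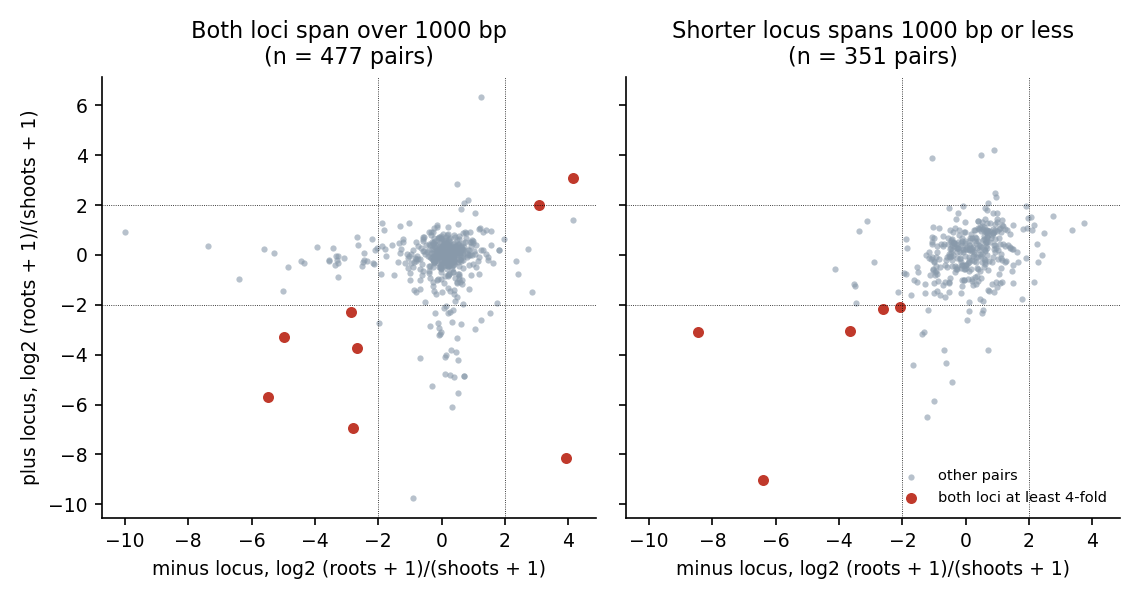
Log2 ratio of roots over shoots, with 1 FPKM added, of the minus locus (horizontal) and the plus locus (vertical) of each divergent pair, in 477 pairs with both loci over 1000 bp and in 351 with a shorter locus of 1000 bp or less; dotted lines mark 4-fold and red points are the 13 pairs with both loci called. The long pairs form a cross, in which one partner differs while the other stays near 0, and the red points lie mostly in the shoot-biased corner.

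The largest joint difference was that of a pair on chromosome 7. The minus-strand locus M_XLOC_022554, spanning 5127881 to 5130109, had 148 FPKM in shoots and 0.76 in roots, and the plus-strand locus P_XLOC_022387, spanning 5129273 to 5130176, had 2503 and 3.83 FPKM. Their log2 ratios were -6.40 and -9.02. The loci overlap by 837 bp, which is most of the span of the plus-strand locus. In shoots the minus-strand locus stood at 5.91% of its partner. On chromosome 3 the minus-strand locus spanning 187532722 to 187534294 had 44.4 FPKM in shoots and 0.017 in roots. Its partner spanning 187533213 to 187535807, overlapping by 1082 bp, had 120 and 1.34 FPKM. Both of these loci were at 1.34 FPKM or less in roots. Leakage of reads between strands was not measured, and its part in the joint bias of these overlapping pairs was not tested.

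Joint shoot bias was also seen without overlap. On chromosome 2 the minus-strand locus spanning 6470740 to 6473603 had 43.5 FPKM in shoots and 0.42 in roots, and the plus-strand locus 173 bp away, spanning 6473777 to 6482852, had 26.1 and 1.74 FPKM. A further minus-strand locus, spanning 6475924 to 6486253, overlaps most of the plus-strand one and went the other way, with 17.2 FPKM in shoots and 102 in roots. Adjoining loci of other named pairs with joint bias, on chromosomes 7, 2 and 4, were nearer to equal, with log2 ratios of 0.36, 0.46 and 0.23. On chromosome 5 the minus-strand locus spanning 183480426 to 183483423 had 13.6 and 1.10 FPKM and the plus-strand locus 106 bp away, spanning 183483530 to 183485782, had 137 and 0.12 FPKM. The order of those partners was opposite in the organs, although both were far lower in roots. The last pair with each locus at 10 FPKM or more in shoots, on chromosome 2 spanning 2047920 to 2057174, had 20.1 and 21.2 FPKM in shoots and 1.89 and 3.60 FPKM in roots on the minus and plus strand, with an overlap of 378 bp. The other 5 jointly shoot-biased pairs had a weaker partner at 3.62 to 9.61 FPKM in shoots.

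Joint root bias was rare. On chromosome 4 the minus-strand locus M_XLOC_014073, spanning 39593246 to 39595803, had 6.63 FPKM in shoots and 63.9 in roots. The plus-strand locus P_XLOC_013884, spanning 39596593 to 39600245 and 789 bp away, had 4.77 and 22.3 FPKM. Both were thus present in shoots at a lower level. The other such pair, which is outside the naming rule because its weaker locus is under 10 FPKM and was chosen after its values were seen, lies on chromosome 4 spanning 174042012 to 174044883. Its minus-strand locus had 1.12 and 36.8 FPKM and its plus-strand locus, overlapping by 1440 bp, had 0.10 and 8.26 FPKM. The overlap covers nearly all of the plus-strand locus, which spans 1449 bp, and the part of strand leakage was not tested.

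A single pair had strong opposite bias. On chromosome 5 the minus-strand locus spanning 206741152 to 206743244 had 0.024 FPKM in shoots and 14.4 in roots, a log2 ratio of 3.91. The plus-strand locus spanning 206743462 to 206745010 had 452 FPKM in shoots and 0.59 in roots, a log2 ratio of -8.15. The gap between these loci is 217 bp, and each organ held one of them with the other below 1 FPKM.

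**Figure D4:**
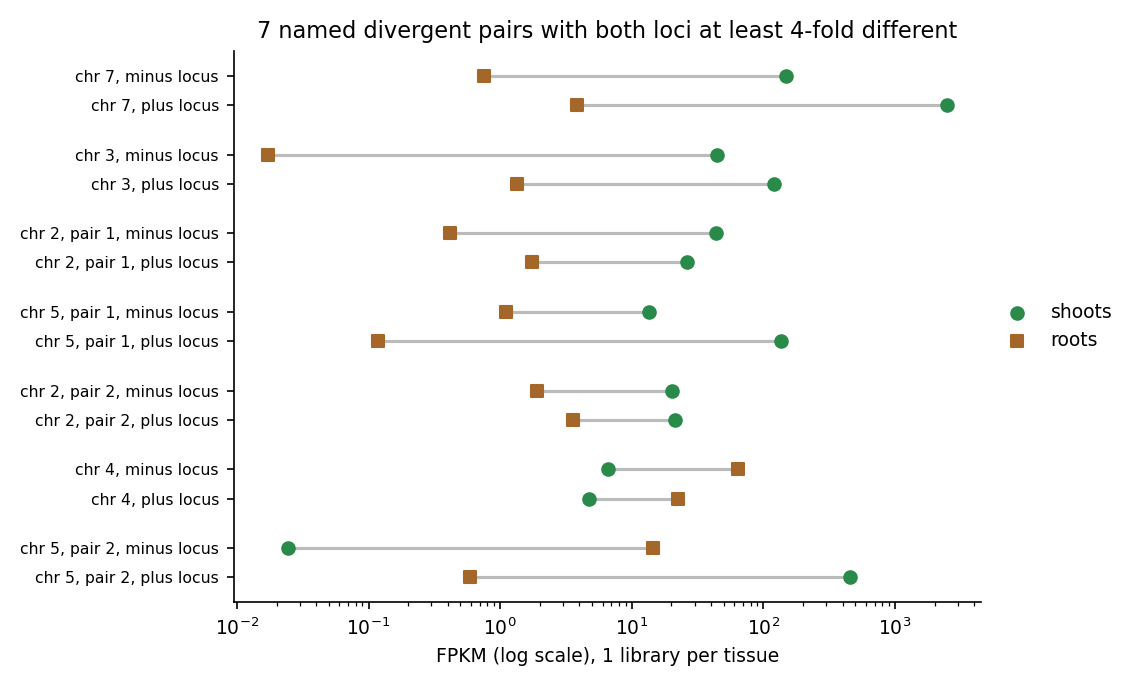
FPKM (log scale) in shoots (circles) and roots (squares) of the minus and plus locus of 7 divergent pairs with both loci at least 4-fold different, 1 library per tissue, identified by chromosome in the order of the naming rule. In the top 5 pairs both loci are higher in shoots, in the chromosome 4 pair both are higher in roots, and in the bottom pair the minus locus is higher in roots at 14.4 FPKM and the plus locus in shoots at 452 FPKM.

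Several strongly shoot-biased loci had a neighbour that was almost equal in the organs. In 26 of the 215 pairs with each locus at 10 FPKM or more in an organ, one locus was at least 4-fold higher in shoots. The other locus of these 26 was within 0.5 of 0 on the log2 scale. At this level, exactly 1 locus was called, and in favour of shoots, in 15.8% of divergent and 18.7% of convergent pairs. For same-strand pairs the share was 10.6%. These shares set no limit of 0.5 on the other locus, so they are not a like measure for the 26. Quartiles of the log2 ratio across all listed loci were -0.56 and 0.54, so nearly equal levels were common. In the pair with the largest contrast, on chromosome 6, the minus-strand locus spanning 163973641 to 163974980 had 3120 FPKM in shoots and 17.9 in roots. Its plus-strand neighbour spanning 163975070 to 163984500, 89 bp away, had 20.8 and 26.8 FPKM. On chromosome 1 the plus-strand locus spanning 206263209 to 206266426 had 93.0 and 0.36 FPKM, while the minus-strand locus spanning 206259321 to 206263691, with 483 bp in common, had 11.7 and 15.1 FPKM. A pair on chromosome 5 spanning 48443928 to 48451547 showed the same form, with 269 and 8.13 FPKM on the plus strand and 16.5 and 22.2 FPKM on the minus strand. So did a pair on chromosome 1 spanning 290130904 to 290138852, with 45.5 and 0.65 FPKM on the plus strand and 12.7 and 15.7 FPKM on the minus strand. The fifth, on chromosome 3 spanning 211727508 to 211732768, had 265 and 8.12 FPKM on the minus strand and 31.1 and 21.8 FPKM on the plus strand. In each of these 5 pairs the steady neighbour was at 11.7 to 31.1 FPKM in both organs, while the other locus had a log2 ratio of -4.82 or lower.

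The reverse form, a root-biased locus beside a steady one, was found in 4 of these 215 pairs. At this level, exactly 1 locus was called, and in favour of roots, in 2.79% of divergent pairs. The share was 4.84% for convergent and 4.51% for same-strand pairs. On chromosome 7 the plus-strand locus spanning 169336065 to 169336853 was listed at 0 in shoots and had 15.0 FPKM in roots, with a minus-strand neighbour 997 bp away at 36.2 and 51.2 FPKM. On chromosome 10 the minus-strand locus spanning 2049302 to 2130564 had 20.6 FPKM in shoots and 110 in roots. Its plus-strand partner spanning 2115733 to 2130772, with which it shares 14832 bp, had 20.7 and 17.4 FPKM. Each value covers a whole locus, so the difference is not placed within the shared stretch. The other pairs of this form lie on chromosome 5 spanning 1569535 to 1577244, with 3.29 and 27.5 FPKM on the minus strand and 13.6 and 16.1 FPKM on the plus strand, and on chromosome 9 spanning 30047834 to 30075316, with 1.31 and 11.2 FPKM against 33.0 and 32.5 FPKM.

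The more abundant partner differed between the organs in 85 of the 520 pairs (16.3%) in which all 4 values were at least 1 FPKM. For convergent pairs this share was 19.6%, and for same-strand pairs 15.1%. No minimum difference was required for a change of order. Of the 85, 61 were among the 158 such pairs whose lower partner stood at 50% or more of the higher. Another 5 were among the 104 in which it was under 10%. The most extreme pair holds the locus with the highest shoot level of the whole table, a minus-strand locus on chromosome 7 spanning 147057063 to 147058228, with 14761 FPKM in shoots and 13.4 in roots. Its divergent neighbour spanning 147058733 to 147062148, 504 bp away, had 34.6 and 66.3 FPKM, and so was the lower partner in shoots and the higher in roots. On chromosome 6 the plus-strand locus spanning 164900927 to 164902252 had 6547 and 6.64 FPKM, and its neighbour spanning 164896559 to 164899937 had 13.6 and 6.79 FPKM. In roots these partners were nearly equal, differing 1.02-fold. Without such extreme levels on either side, a pair on chromosome 4 spanning 126008724 to 126010315, overlapping by 807 bp, also exchanged its order. Its minus-strand locus had 1.15 FPKM in shoots and 14.7 in roots, while its plus-strand locus had 5.93 and 1.46 FPKM.

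The smallest gaps and the longest overlaps were taken among pairs with all 4 values at 10 FPKM or more, a requirement that leaves out loci nearly absent from one organ. They are 3 of 99 separated pairs and 3 of 42 overlapping pairs of that kind. The smallest gap was 5 bp, on chromosome 2 between loci ending at 2545834 and starting at 2545840, with 31.0 and 35.1 FPKM on the minus strand and 56.6 and 37.8 FPKM on the plus strand. At a gap of 52 bp, a pair on chromosome 8 spanning 22650050 to 22682240 had 31.2 and 54.5 FPKM on the minus strand and 20.9 and 21.0 FPKM on the plus strand. At 57 bp, a pair on chromosome 1 spanning 97665362 to 97672700 had 10.9 and 13.1 FPKM against 20.9 and 27.9 FPKM. None of these 6 loci differed 2-fold between the organs. The longest overlap was 126676 bp, on chromosome 5 spanning 33289631 to 33421404, where the minus-strand locus had 26.4 and 64.4 FPKM and the plus-strand locus 15.9 and 18.5 FPKM. The next, 57580 bp on chromosome 7 spanning 159464611 to 159537825, had 43.3 and 42.5 FPKM against 50.3 and 60.3 FPKM. The third was the chromosome 10 pair with one-sided root bias. The minus-strand locus differed by a log2 ratio of 1.25 in the first of these overlaps and of 2.35 in the third.

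Pooled over all distances, the organ difference of one partner was weakly related to that of the other. Spearman's rho between the log2 ratios of the minus and plus locus was 0.23 across 828 divergent pairs, -0.01 across 1754 convergent pairs and 0.63 across 4004 same-strand pairs. These are descriptions across pairs, whose values all come from the same 2 libraries. Same-strand pairs held shorter loci: the shorter one had a median span of 477 bp, against 1375 bp in divergent pairs. A locus of 500 bp or less was part of 51.5% of same-strand and 26.2% of divergent pairs. Same-strand pairs also rose from 25 in the 10 bp from a gap of 40 bp to 178 in the 10 bp from 50 bp. Whether such neighbours are separate transcripts was not tested. The pooled value does not describe each distance class, and the classes are drawn separately in the plot of rho by class. For divergent pairs separated by up to 250 bp rho was -0.02, at 251 to 500 bp 0.33 and at 501 to 1000 bp 0.19. For overlaps of 1 to 100 bp it was 0.36 and for longer overlaps 0.25. In divergent pairs rho was larger where one locus was short. It was 0.40 in the 217 pairs whose shorter locus spanned 500 bp or less, 0.36 in 134 pairs with 501 to 1000 bp, and 0.08 in the 477 pairs with both loci over 1000 bp. The order was the same in the other arrangements, with 0.74, 0.69 and 0.36 for same-strand pairs and 0.16, 0.07 and -0.04 for convergent pairs. With each locus at 5 FPKM or more in an organ it was 0.14 across 335 pairs.

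**Figure D5:**
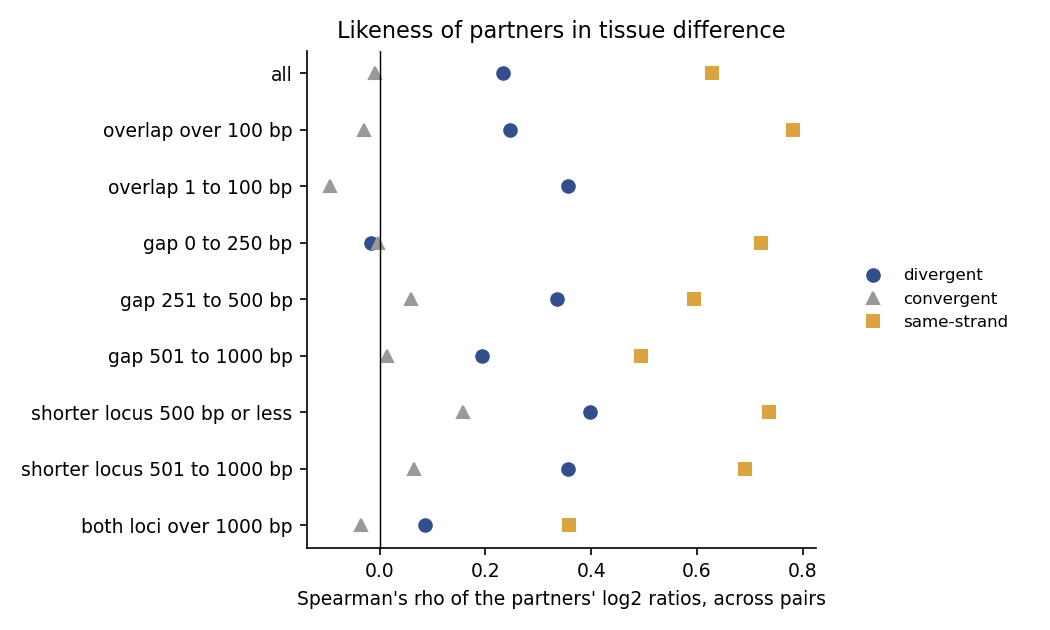
Spearman's rho between the partners' log2 ratios of roots over shoots, across pairs, for divergent (circles), convergent (triangles) and same-strand (squares) pairs, over all pairs and by distance and span class. Divergent pairs lie at 0.23 over all and at 0.08 with both loci over 1000 bp, below the same-strand values of 0.63 and 0.36; no same-strand pair overlapped by 1 to 100 bp.

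Counting only clear differences gave a similar picture. Both loci differed at least 2-fold in 75 divergent pairs, 30 with both higher in shoots, 26 with both higher in roots and 19 in opposite directions, so that 74.7% had the same direction. The share was 59.3% of 113 convergent pairs and 97.7% of 783 same-strand pairs. With both loci over 1000 bp it was 61.5% of 26 divergent, 58.6% of 87 convergent and 92.5% of 134 same-strand pairs. Counted instead by detection at 1 FPKM, both loci were found in shoots only in 23 pairs (2.78%) and in roots only in 8 (0.966%). No such pair had both loci at 5 FPKM or more in an organ, so each held a locus under 5 FPKM in both organs. These shares were 0.912% and 0.285% for convergent pairs and 9.64% and 3.15% for same-strand pairs. A further 9 divergent pairs held one locus detected in shoots only and one in roots only. The left locus was the one in shoots in 0.362% of divergent, 0.285% of convergent and 0.175% of same-strand pairs. It was the one in roots in 0.725%, 0.399% and 0.2%.

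Members of divergent pairs had other neighbours too. Of the 1641 loci, 266 (16.2%) also belonged to a convergent pair, against 9.35% of all listed loci, and 176 (10.7%) to a same-strand pair, against 19.0%. Of the 243 members of 500 bp or less, 43 (17.7%) had a same-strand neighbour within the same distance. Another locus lay wholly inside 148 members, and 53 members lay inside another locus. The share of a chromosome's loci that were members ranged from 3.19% on chromosome 10 to 5.52% on chromosome 5.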

How the data were processed

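The authors deposited 1 table of FPKM values, with 1 column for shoots and 1 for roots, and strand, start and end of each locus on B73 RefGen_v2, per the file header. TopHat, Cufflinks and Cuffdiff are named without versions or settings in the submitters' processing notes. Every listed locus exceeds 1 FPKM in at least 1 library, as tested on the file, and depth is unknown, so no counting interval is given. Pairs were formed from positions. Log2 ratios used a pseudocount of 1 FPKM, which understates the change of low loci. The libraries were not scaled further. Calls needed 4-fold and 1 FPKM in the higher tissue. Rank correlations are across pairs, with no p-value.

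Pairs were named by fixed rules: largest joint bias, opposite bias, one-sided bias, highest joint level, exchanged order, longest overlap, smallest gap and greatest inequality. Members and rules were chosen with earlier results of these data known. The pair search was checked on simulated loci. No genome sequence of this build was used, and no sequences are shown. Python 3.11.15, pandas 2.3.3, NumPy 2.4.6 and SciPy 1.17.1 were used.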

Additional observations from a re-analysis of the deposited data

How the results depend on the processing

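Of 125 values under other settings, 77 stayed close to those reported, 46 moved and 2 changed sign. Close means within 1.5 times for counts, and within the 95% interval of the main value for shares, medians and correlations, an interval that takes pairs as independent. With a pseudocount of 0.1 FPKM, the shoot and root shares of members were 11.0% and 6.28%, and 26, 12 and 5 pairs had both loci higher in shoots, both higher in roots and opposite bias. With 5 FPKM these were 3.90%, 0.49%, 3, 0 and 0. At a 2-fold threshold they were 14.4%, 10.2%, 30, 26 and 19, and at 8-fold 4.08%, 0.67%, 5 and 1, with the opposite pair kept in number at 1. Scaling by the median ratio left 1 pair with both loci higher in roots, as did a maximum gap of 500 bp. A lower threshold or a smaller added FPKM calls more loci by its construction.

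With both loci at 5 FPKM or more, 335 pairs were left, 11.1% of members were higher in shoots, the lower partner stood at a median of 39.1%, the more abundant partner changed in 21.2% of pairs, and rho was 0.14 for log2 ratios and 0.18 for root levels. The 418 separated pairs gave rho of 0.15 for log2 ratios and 0.19 for root levels, a median of 28.7% and 1 jointly root-biased pair. The 410 overlapping pairs gave 0.30 for log2 ratios, -0.037 and -0.094 for shoot and root levels, where the sign changed, a median of 17.4%, and 3, 1 and 0 pairs with joint shoot, joint root and opposite bias. Of the settings added after seeing the data, both loci over 1000 bp left 477 pairs, with 8.08% of members higher in shoots, 5 jointly shoot-biased pairs, rho of 0.085 for log2 ratios and a median of 29.0%. Leaving out overlaps of 1 to 100 bp gave rho of 0.17 for levels in shoots and in roots and a median of 27.6%. Each locus in 1 pair and centring within strands moved no value. Why the correlations differ between these subsets was not tested. No paired analysis was possible because shoots and roots have 1 library each, and leaving a library out would leave no comparison.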
